A study of Homo sapiens with 4 samples.

Results

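Cells carry a group of genes that ERK switches on and that, in turn, restrain or carry forward the RAS-MAPK signal. The 10 genes described here were taken by their symbols from the 31319 genes of the expression tables. They were the dual-specificity phosphatases DUSP4, DUSP5 and DUSP6, the Sprouty and SPRED proteins SPRY2, SPRY4 and SPRED1, the ETS transcription factors ETV4 and ETV5, and the early-response genes PHLDA1 and IER3. All 10 were listed in every table.

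RNA sequencing was carried out on the bladder cancer cell lines T24 and UM-UC-3, both driven by mutant RAS. Each line was kept for 48 h in DMSO, the solvent control, or in 140 µM OICR-9429. This compound binds WDR5 and keeps it from MLL, a histone methyltransferase. The paper places this dose above the median inhibitory concentration for viability at 48 h in both lines. T24 and UM-UC-3 were grown in different media. The data set held 4 libraries, 1 for each line and condition, so no difference within a line had a replicate check. The labels give 140 µM, whereas the number 125 stands in the column headings of the treated libraries without an explanation.

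In the RAS-MAPK cascade, active RAS recruits RAF kinases, which activate MEK and then ERK. ERK raises transcription of its own inhibitors: the phosphatases remove the activating phosphates from ERK and related kinases, and Sprouty and SPRED proteins act on the steps between the receptor and RAF. The RNA levels of these genes are widely read as a measure of ERK output, and ETS factors of the PEA3 family carry the signal on to further genes.

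The libraries held 28209432 to 29335051 reads as worked back from the deposited values, and mitochondrial genes took 2.83 to 3.94% of reads. WDR5 itself was at an FPKM (fragments scaled for exon length and library depth) of 33.7 and 29.7 in T24, in DMSO and OICR-9429 respectively, and of 44.4 and 29.8 in UM-UC-3. The epithelial keratins KRT8 and KRT18 were at 14.6 to 91.3 in all 4 libraries, while CDH1, KRT19, GATA3 and UPK2, also epithelial or urothelial markers, lay at 0 to 0.548, KRT7 at no more than 2.46 and PPARG at 1.55 to 6.93. The analysed leukocyte, fibroblast and endothelial markers lay at 0 to 0.320. In bulk RNA, fewer cells of a type and less RNA per cell cannot be told apart.

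Sequences just before the start sites are shown for 3 members, because SPRY2 and SPRY4 had like changes in both lines while DUSP6 differed most between the lines among the phosphatases. They are RefSeq windows of GRCh38.p14, 250 bases before to 50 bases after an annotated start, written along the gene's own strand. Of the 10 genes, 5 were matched, with 7 windows in all. Capitals mark matches on either strand to the letters CCGGAA, a core bound by ETS factors, or TGACG, part of the element bound by CREB and ATF factors. The SPRY2 window lies at chr13:80341077-80341376, the SPRY4 window at chr5:142324198-142324497 and the DUSP6 window at chr12:89352452-89352751, all on the minus strand.
SPRY2: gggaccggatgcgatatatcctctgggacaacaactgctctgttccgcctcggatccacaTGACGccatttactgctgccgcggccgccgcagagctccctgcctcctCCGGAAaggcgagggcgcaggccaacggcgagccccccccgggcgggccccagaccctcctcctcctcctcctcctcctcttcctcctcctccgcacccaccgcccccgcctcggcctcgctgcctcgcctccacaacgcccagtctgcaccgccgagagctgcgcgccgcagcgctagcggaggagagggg
SPRY4: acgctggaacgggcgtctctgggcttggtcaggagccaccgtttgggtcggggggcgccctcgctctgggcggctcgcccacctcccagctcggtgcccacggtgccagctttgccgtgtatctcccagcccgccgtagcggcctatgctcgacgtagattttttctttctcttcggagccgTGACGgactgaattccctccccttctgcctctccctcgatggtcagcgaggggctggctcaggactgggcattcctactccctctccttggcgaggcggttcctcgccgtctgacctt
DUSP6: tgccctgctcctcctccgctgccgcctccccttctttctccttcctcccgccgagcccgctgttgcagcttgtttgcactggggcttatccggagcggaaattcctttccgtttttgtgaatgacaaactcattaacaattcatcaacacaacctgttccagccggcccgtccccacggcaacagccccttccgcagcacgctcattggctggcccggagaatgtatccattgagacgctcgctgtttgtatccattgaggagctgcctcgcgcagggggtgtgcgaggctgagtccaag

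The SPRY2 window held TGACG at -190 and CCGGAA at -142 from the start, and the SPRY4 window held TGACG at -68. PHLDA1, whose window is not shown, held CCGGAA at -89. No match to either set of letters, or to the AP-1 letters TGANTCA, was in the DUSP6 window or in that of SPRED1. The 2 further SPRY2 windows, not shown, held none, so the SPRY2 window shown is the one with matches. Of the members' 7 windows, 2 held CCGGAA, 2 held TGACG and 0 held TGANTCA. Over all 35116 windows, 17.2% held CCGGAA, 24.6% held TGACG and 7.71% held TGANTCA. Such matches are thus common and are given as a description only.

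The DMSO libraries give the levels of the lines without the compound. SPRY2, SPRY4, SPRED1, ETV4, DUSP5, DUSP6 and IER3 were higher in T24, and DUSP4, PHLDA1 and ETV5 were higher in UM-UC-3. By the rule of size, a difference of 2-fold or more in FPKM + 0.5 where either library reached an FPKM of 1, 28.4% of 13393 genes were called. Of the members, 4 were higher in T24 (DUSP5, SPRY2, SPRY4 and ETV4), where 14.9% of genes were, and 1 was higher in UM-UC-3 (DUSP4), where 13.5% were. DUSP4 had the largest fold difference of the members, 274-fold, at an FPKM of 0.0239 in T24 (5 reads) and 6.55 in UM-UC-3. SPRY2, SPRY4 and ETV4 were 4.42-, 4.47- and 4.55-fold higher in T24. ETV5 differed least, 1.15-fold. Summed over the 10 genes, the DMSO level of T24 was an FPKM of 264 and that of UM-UC-3 was 137.

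**Figure D1:**
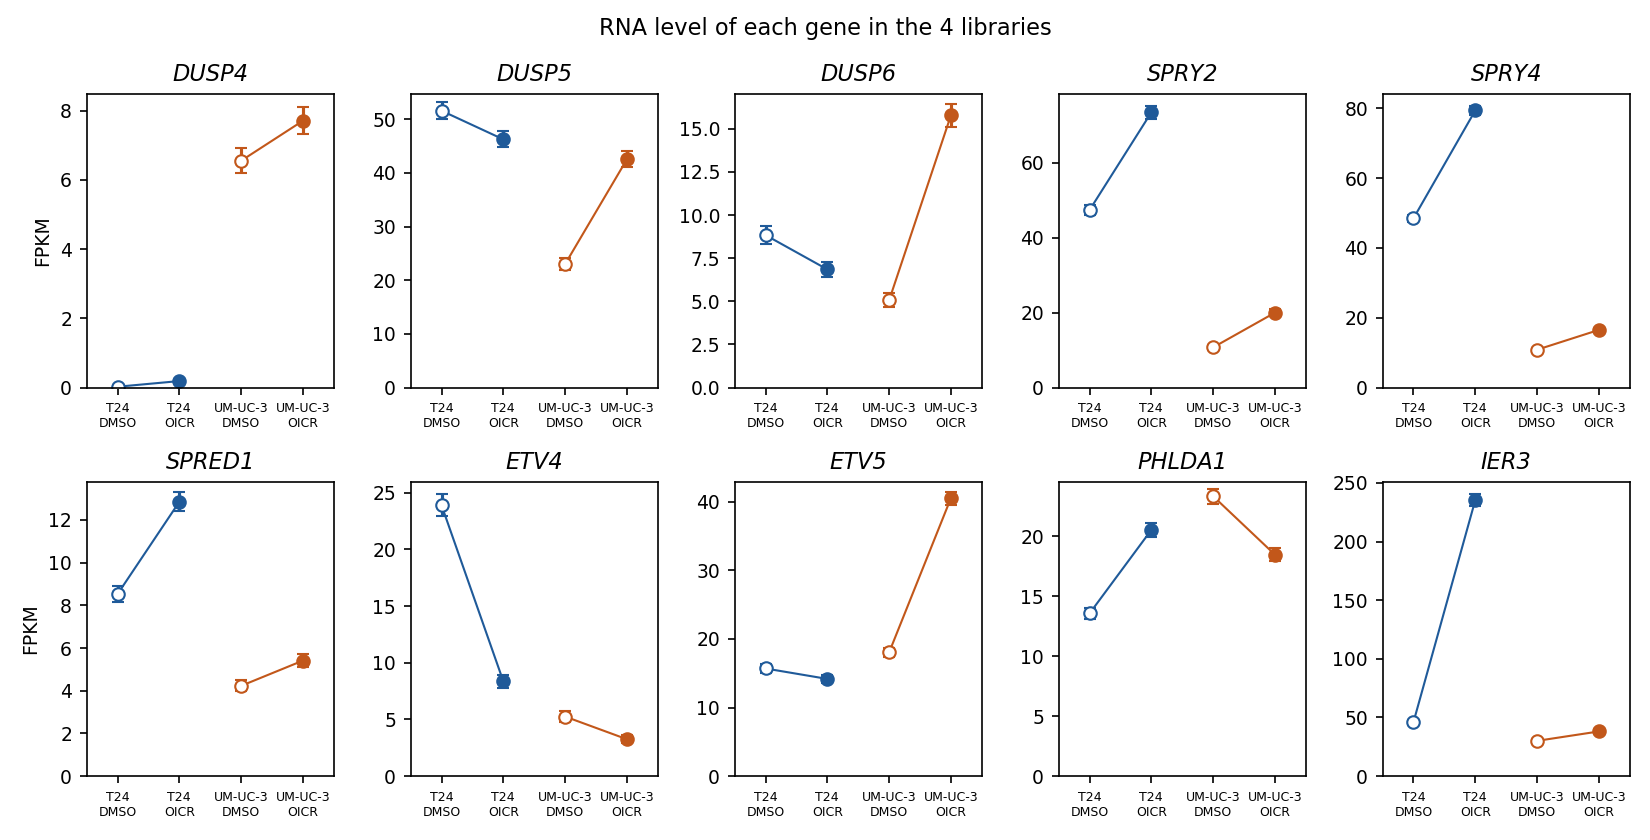
FPKM of the 10 genes in each library (linear axes from 0, 1 panel per gene), with open points for DMSO and filled points for OICR-9429, T24 in blue and UM-UC-3 in orange. Bars are exact Poisson 95% intervals, which cover counting error only; IER3 stands out in treated T24 at 235, and DUSP6 in treated UM-UC-3 at 15.8.

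After OICR-9429, IER3 was higher and ETV4 lower in T24, and DUSP6 and ETV5 were higher in UM-UC-3, each by at least 2-fold. In T24, 9 of the 10 genes reached the FPKM minimum, 1 was called lower beside 13.5% of 12638 genes, and 1 was called higher beside 6.93%. In UM-UC-3, all 10 reached it, 0 were called lower beside 12.1% of 13086 genes, and 2 were called higher beside 14% (26% in either direction). None was called alike in both lines, where 6.32% of 11178 genes were called lower and 2.67% higher. The median log2 fold change of the members in T24 was 0.56, against -0.15 over all genes tested. In UM-UC-3 it was 0.46, against 0.09. Of the 9 genes tested in both lines, 4 were above 0 in both (SPRY2, SPRY4, SPRED1 and IER3), as were 32.8% of all genes, 1 was below 0 in both (ETV4) and 4 had opposite signs (DUSP5, DUSP6, ETV5 and PHLDA1), as had 30.9% of all genes. Of these signs, that of ETV5 in T24 flipped under median-ratio scaling. Between the treated libraries, IER3, SPRY4, SPRY2, ETV4 and SPRED1 were 6.19-, 4.81-, 3.67-, 2.57- and 2.38-fold higher in T24. DUSP4, ETV5 and DUSP6 were 41.0-, 2.86- and 2.30-fold higher in UM-UC-3, DUSP4 with an FPKM of only 0.188 in treated T24.

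A change shared by the lines was tested with limma, fitted with the cell line as a block, so that the lines served as the only replication. It called 3.11% of 12584 genes lower and 0.811% higher at an adjusted p below 0.05, 3.92% in all, and 0 of the 10 members. At an unadjusted p below 0.05 there were 4 members, SPRY2, SPRY4, IER3 and ETV4, beside 22.6% of all genes fitted (2840 of 12584). In 9 alternative settings of the fit no member fitted passed the adjusted threshold. SPRY4 was not fitted with voom, nor DUSP4 where an FPKM of at least 1 was required in all 4 libraries. With 1 residual degree of freedom per gene, these p-values rest largely on the spread shared across genes.

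**Figure D2:**
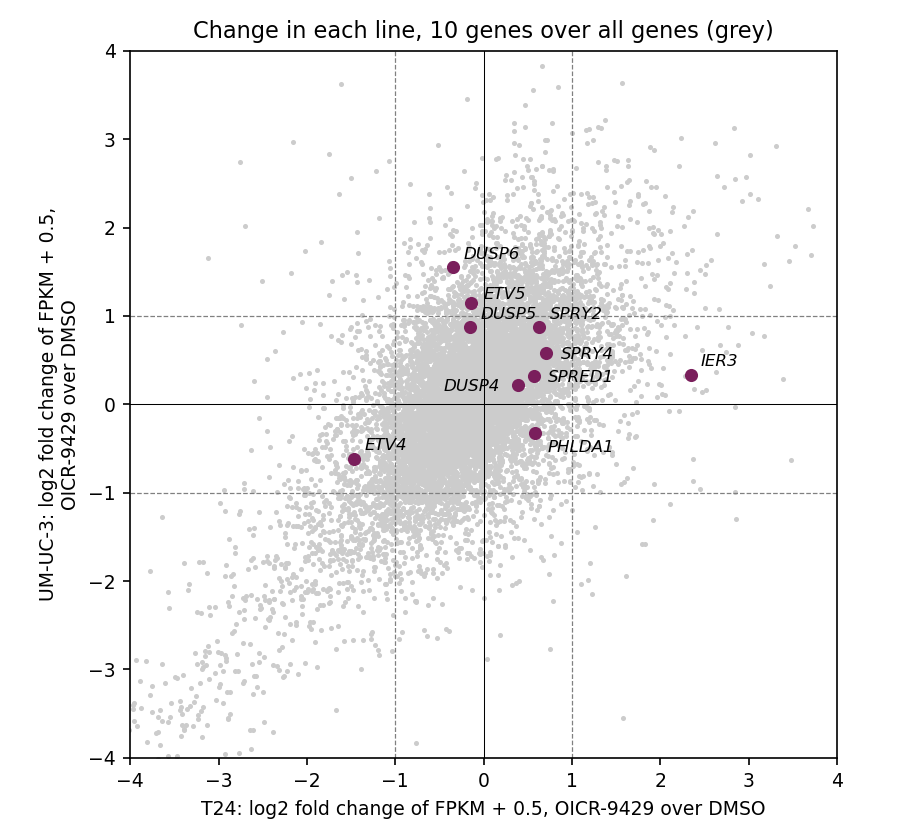
Log2 fold change of FPKM + 0.5, OICR-9429 over DMSO, in T24 (horizontal) and UM-UC-3 (vertical). Grey points are genes that reached the FPKM minimum, purple points the 10 members (DUSP4 was below the minimum in T24), and dashed lines mark 2-fold; SPRY2, SPRY4 and SPRED1 sit in the upper right, DUSP6, ETV5 and DUSP5 in the upper left (ETV5 crosses to 0.01 in T24 under median-ratio scaling) and ETV4 in the lower left.

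Among the phosphatases, the treated-to-DMSO difference in RNA was opposite in the lines for DUSP6 and, in the values as deposited, for DUSP5. DUSP6 (ENSG00000139318, chromosome 12), a cytoplasmic phosphatase selective for ERK, in T24 was at an FPKM of 8.84 in DMSO and at 6.85 with the compound, and at 5.06 and 15.8 in UM-UC-3. UM-UC-3 had the lower level of the lines in DMSO and the higher one in OICR-9429. The FPKM ratio of OICR-9429 to DMSO was 0.775 (95% interval 0.710 to 0.845) in T24 and 3.12 (2.86 to 3.41) in UM-UC-3, at percentiles 39.2 and 94.5 of the changes of all genes in these lines. The limma estimate over both lines was 0.60 with a standard error of 0.49 on the log2 scale (adjusted p = 0.51).

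DUSP5 (ENSG00000138166, chromosome 10), a nuclear phosphatase also selective for ERK, was at 51.6 FPKM in DMSO and 46.3 with the compound in T24, and at 23.0 and 42.5 in UM-UC-3. The lines differed 2.24-fold in DMSO and came close to one level in OICR-9429. The FPKM ratio was 0.897 (0.856 to 0.938) in T24 and 1.85 (1.74 to 1.96) in UM-UC-3, and the limma estimate was 0.36 with a standard error of 0.31 (adjusted p = 0.54). The T24 value depends on scaling: its log2 fold change of -0.16 became -0.00 under median-ratio scaling. DUSP5 exceeded DUSP6 in all 4 libraries, by an FPKM ratio of 5.84 and 6.75 in T24 against 4.55 and 2.70 in UM-UC-3.

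DUSP4 (ENSG00000120875, chromosome 8), a nuclear phosphatase that acts on ERK, JNK and p38, was near 0 in T24. It gave 5 reads in DMSO and 40 in OICR-9429 there, FPKM 0.0239 and 0.188, a ratio of 7.87 with an interval of 3.11 to 25.6 that covers counting error only. The log2 fold change was 0.39 with the pseudocount of 0.5 and 1.22 with 0.1. Both levels were below the FPKM minimum, so no call was made. In UM-UC-3 DUSP4 was at 6.55 and 7.71, a ratio of 1.18 (1.09 to 1.27). The limma estimate was 0.31 with a standard error of 0.34 (adjusted p = 0.63), and it was 0.72 with a pseudocount of 0.1 and 0.69 with voom. The phosphatases together summed to an FPKM of 60.5 and 53.3 for T24, and of 34.6 and 66.0 for UM-UC-3.

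SPRY2 and SPRY4 were higher in OICR-9429 than in DMSO in both lines. Sprouty proteins bind signalling adaptors below growth factor receptors and hold back RAS and RAF activation. SPRY2 (ENSG00000136158, chromosome 13) was at 47.4 FPKM in DMSO and 73.5 with the compound in T24, and at 10.7 and 20.0 in UM-UC-3. The FPKM ratio was 1.55 (1.49 to 1.61) and 1.86 (1.72 to 2.02), and the limma estimate was 0.75 with a standard error of 0.23 (adjusted p = 0.15, unadjusted p = 0.019). Both treated libraries were above the DMSO library of their own line, while the treated UM-UC-3 level stayed below the T24 level in DMSO.

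SPRY4 (ENSG00000187678, chromosome 5) was at 48.5 and 79.4 FPKM in T24 and at 10.8 and 16.5 in UM-UC-3. The FPKM ratio was 1.64 (1.59 to 1.68) in T24 and 1.52 (1.44 to 1.62) in UM-UC-3, below the 2-fold rule in both. The limma estimate was 0.65 with a standard error of 0.23 (adjusted p = 0.18, unadjusted p = 0.032). An RNA that overlaps SPRY4, SPRY4-IT1, was at 1.97 and 1.84 in T24 and at 0.403 and 0.585 in UM-UC-3, and whether counting used strand is not stated.

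SPRY2 and SPRY4 were close to equal in FPKM in 3 libraries, although their DMSO levels differed between the lines by more than 4-fold. The ratio of SPRY2 to SPRY4 in T24 was 0.978 (0.942 to 1.01) in DMSO and 0.926 (0.899 to 0.953) with the compound. For UM-UC-3 these ratios were 0.989 (0.913 to 1.07) and 1.21 (1.14 to 1.29). The treated UM-UC-3 library was the one in which SPRY2 exceeded SPRY4 beyond counting error.

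SPRED1 (ENSG00000166068, chromosome 15), which brings the RAS inactivator neurofibromin to the membrane, was at 8.53 and 12.9 FPKM in T24 and at 4.23 and 5.41 in UM-UC-3. The order of the libraries was that of SPRY4. The ratio was 1.51 (1.42 to 1.59) in T24 and 1.28 (1.18 to 1.39) in UM-UC-3, with a limma estimate of 0.44 and a standard error of 0.30 (adjusted p = 0.43). Together SPRY2, SPRY4 and SPRED1 summed to 104 and 166 FPKM for T24, and to 25.8 and 41.9 for UM-UC-3.

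ETV4 and ETV5 are closely related factors of the PEA3 family, and in UM-UC-3 they differed in direction. ETV4 (ENSG00000175832, chromosome 17) in T24 was at 23.9 FPKM in DMSO and at 8.35 with the compound, and at 5.25 and 3.25 in UM-UC-3. It was the only member lower in both treated libraries, 2.86-fold (2.65 to 3.09) in T24, at percentile 6.87 of the changes there, and 1.62-fold (1.41 to 1.86) in UM-UC-3. The limma estimate was -1.04 with a standard error of 0.34 (adjusted p = 0.15, unadjusted p = 0.023). DHX8, a helicase gene that overlaps ETV4, was at 10.6 and 8.02 in T24 and at 8.44 and 8.55 in UM-UC-3.

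ETV5 (ENSG00000244405, chromosome 3) was at 15.7 and 14.2 FPKM in T24 and at 18.0 and 40.5 in UM-UC-3. The treated UM-UC-3 library stood above the other 3, which lay within 14.2 to 18.0. The ratio was 0.903 (0.854 to 0.955) in T24 and 2.25 (2.15 to 2.35) in UM-UC-3, and the limma estimate was 0.50 with a standard error of 0.36 (adjusted p = 0.46). The sign in T24 is not firm: scaling the libraries by median ratios moved the log2 fold change of ETV5 from -0.14 to 0.01. An antisense RNA, ETV5-AS1, was at 0 to 0.673 FPKM in the 4 libraries.

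The 2 factors were not present in one proportion. The FPKM ratio of ETV4 to ETV5 was 1.52 (1.44 to 1.61) in T24 in DMSO and 0.590 (0.545 to 0.637) in OICR-9429, and it was 0.291 (0.265 to 0.319) and 0.0802 (0.0717 to 0.0894) in UM-UC-3. ETV4 was the more abundant of the 2 in the T24 DMSO library only, and ETV5 exceeded ETV4 by 12.5-fold in treated UM-UC-3.

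**Figure D3:**
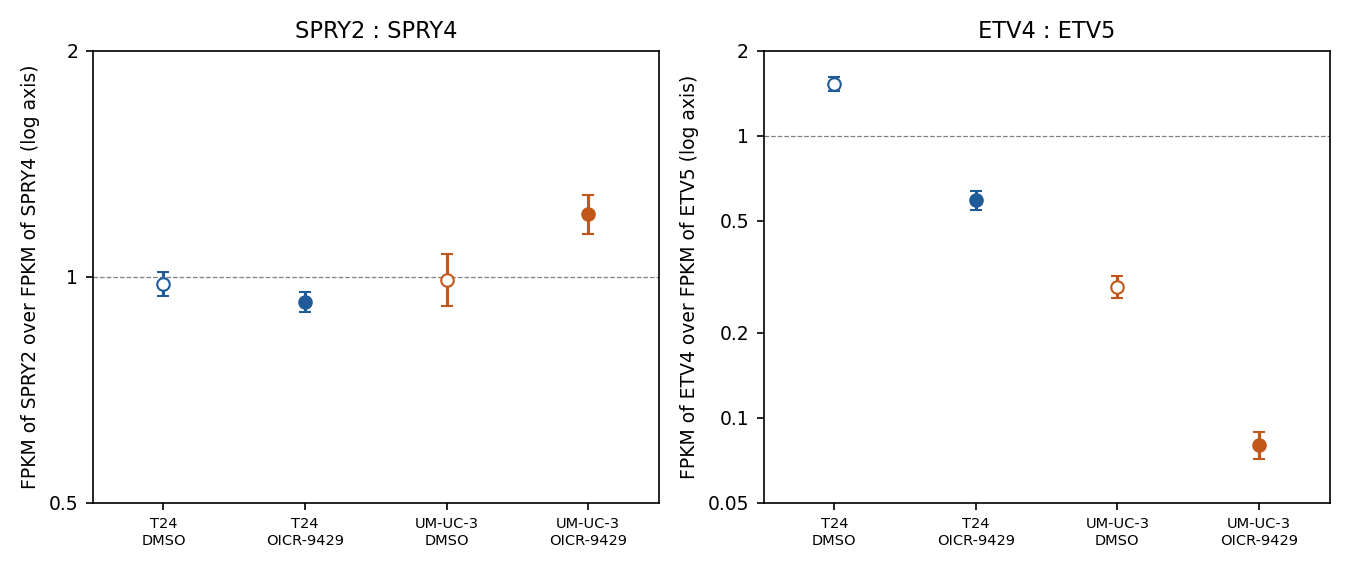
FPKM of SPRY2 over SPRY4 (left) and of ETV4 over ETV5 (right) in each library, on log axes, with open points for DMSO, filled points for OICR-9429 and bars for 95% intervals of counting error. SPRY2 to SPRY4 stays between 0.926 and 1.21, while ETV4 to ETV5 runs from 1.52 to 0.0802.

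IER3 (ENSG00000137331, chromosome 6), an early-response gene whose protein is a substrate of ERK and acts in cell survival, had the largest treated-to-DMSO fold difference of the members that reached the FPKM minimum in T24. T24 had 46.1 FPKM of it in DMSO and 235 with the compound, and UM-UC-3 had 30.0 and 38.1. In T24 IER3 went from the 4th to the highest level of the 10 genes. The FPKM ratio was 5.11 (4.86 to 5.38) in T24, at percentile 99.5 of the changes there, and 1.27 (1.17 to 1.37) in UM-UC-3, at percentile 61.2. The limma estimate was 1.34 with a standard error of 0.47 (adjusted p = 0.18, unadjusted p = 0.032). The summed FPKM of the 10 genes, 264 and 497 in T24, moved mostly with IER3.

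PHLDA1 (ENSG00000139289, chromosome 12), which encodes a protein with a pleckstrin homology-like domain, was at 13.6 and 20.5 FPKM in T24 and at 23.4 and 18.5 in UM-UC-3. The ratio was 1.51 (1.45 to 1.58) in T24, and in UM-UC-3 it was 0.791 (0.760 to 0.824). The levels of the lines lay closer to each other in OICR-9429 than in DMSO, with a limma estimate of 0.13 and a standard error of 0.31 (adjusted p = 0.84).

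Other genes of the pathway were read in the same libraries, with lists chosen by role. Of 7 other MAPK phosphatases, T24 had 4 and UM-UC-3 had 3 that reached the FPKM minimum. In T24, 0 were called, beside 20.5% of all genes. In UM-UC-3, 1 was called higher, beside 14% of all genes: DUSP1, which acts mainly on p38 and JNK. It was at 64.8 and 107 FPKM in T24 and, for UM-UC-3, at 38.2 and 77.8. Its limma estimate was 0.87 with a standard error of 0.23 (adjusted p = 0.11). DUSP7 had a log2 fold change of 0.61 in T24 against -0.42 in UM-UC-3, and DUSP10 had 0.18 against 0.11. Of the 4 other Sprouty and SPRED genes, 2 were tested and 0 called, SPRED2 (log2 fold changes 0.23 and 0.48) and SPRED3 (0.66 and 0.05). Of 11 further negative regulators, 10 were tested in each line and 0 were called, beside the same shares of all genes. PEBP1, the RAF kinase inhibitor protein, was at 197 and 195 FPKM in T24 and at 101 and 50.6 in UM-UC-3, just short of the 2-fold rule. The list medians on the log2 scale in T24 and UM-UC-3 were 0.39 and 0.63 for the phosphatases, 0.44 and 0.27 for the Sprouty and SPRED genes, and 0.05 and 0.28 for the further regulators.

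Of 18 core genes of the cascade from RAS to ERK, 0 were called in T24, where 20.5% of all genes were. Of the 17 tested in UM-UC-3, 2 were called higher, as were 14% of all genes, and 0 lower, beside 12.1%. The 2 were the exchange factor gene SOS2 (log2 fold changes 0.60 and 1.47, adjusted p = 0.15 by limma) and the kinase gene BRAF (0.66 and 1.35, adjusted p = 0.15). The medians of the list were -0.02 and 0.21, against -0.15 and 0.09 over all genes tested. Of 9 receptor genes, 8 were tested in T24 and 7 in UM-UC-3. Called lower were 2 in T24 (AXL and FGFR4), beside 13.5% of all genes, and 1 in UM-UC-3 (AXL), beside 12.1%. The receptor medians were 0.06 and -0.61. AXL, a receptor tyrosine kinase, fell in limma, by 1.28 on the log2 scale with a standard error of 0.22 (adjusted p = 0.041), with levels of 80.9 FPKM in DMSO against 35.1 in the compound for T24, and of 116 against 45.1 for UM-UC-3.

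Of 24 other ERK output genes, 23 were tested in T24 and 22 in UM-UC-3. In T24, 2 were called lower and 4 higher, beside 13.5% and 6.93% of all genes. In UM-UC-3, 3 were called in each direction, beside 12.1% lower and 14% higher. HBEGF, a ligand of the EGF receptor, fell in limma, by 1.69 with a standard error of 0.25 (adjusted p = 0.028), with levels of 29.7 FPKM in DMSO against 8.81 in the compound for T24, and of 23.2 against 6.91 for UM-UC-3. FOSL1, a subunit of AP-1, was at 177 and 136 in T24 and at 403 and 225 in UM-UC-3, and CCND1, which encodes cyclin D1, was at 128 and 178 and at 159 and 99.4. The median log2 fold changes of the list were 0.11 and -0.13, against -0.15 and 0.09 over all genes tested. Of 7 other ETS genes, all 7 were tested in T24 and 0 were called, beside 20.5% of all genes. Of the 6 tested in UM-UC-3, 1 was called higher, ELK4 (0.73 and 1.08), beside 14% of all genes. The medians of these ETS genes were 0.32 and -0.05. A list of 10 genes used elsewhere as a MAPK activity score, 7 of them members here, had medians of 0.17 and 0.22. Of the 8 tested in T24, ETV4 was called lower, beside 13.5% of all genes, and 0 higher, beside 6.93%. Of the 9 tested in UM-UC-3, EPHA2 was called lower, beside 12.1%, and 2 higher (DUSP6 and ETV5), beside 14%. No member of these lists other than AXL and HBEGF passed limma.

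**Figure D4:**
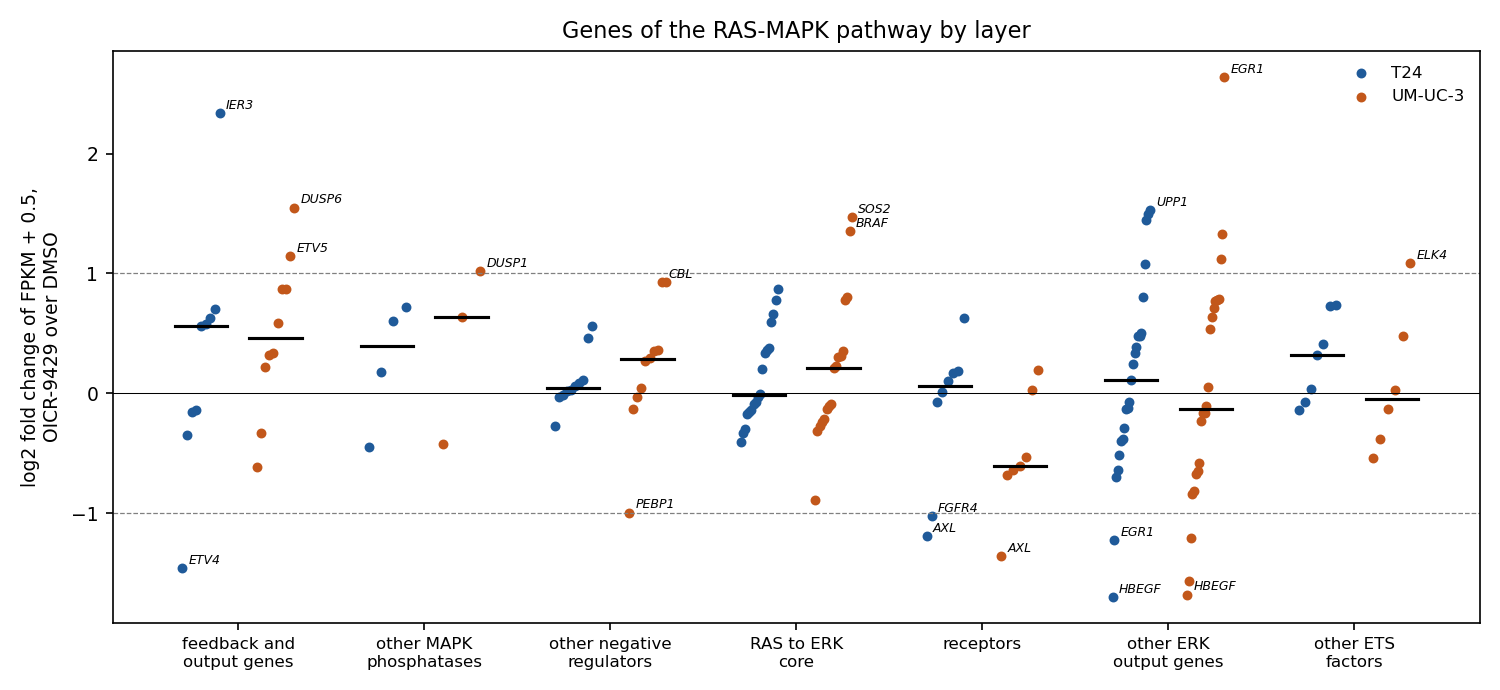
Log2 fold change of FPKM + 0.5 (OICR-9429 over DMSO) for the members and 6 other lists of pathway genes, T24 in blue and UM-UC-3 in orange, for genes that reached the FPKM minimum. Black bars are list medians and dashed lines mark 2-fold; the members' medians are 0.56 and 0.46, and HBEGF and AXL are below -1 in both lines.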

How the data were processed

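RNA of 4 libraries was analysed, 1 per cell line and treatment. The authors deposited FPKM values for 31319 genes. Tools listed in the submitters' processing notes are HISAT2 2.1.0 (alignment), HTSeq 0.6.1 (counting) and bcl2fastq 2.19.1 (base calls), with hg19 as the build. Each table holds 1 library, and 0 columns of other samples were left out. With merged exon lengths of GENCODE 29, whole reads were recovered in every library for 29029 genes (92.7%, tolerance 1e-06). SPRY4 came out whole only at a length of 5930 bases in place of 6565. Intervals are exact at 95% and cover counting error only.

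FPKM are not counts, and 1 library per group allows no test within a line, so genes were called at a difference of 2-fold or more in FPKM + 0.5 where either library reached an FPKM of 1. Cell line and treatment were the terms of a limma 3.58.1 model (lmFit, trended eBayes) of log2(FPKM + 0.5), for genes that reached an FPKM of 1 in 2 or more libraries, with Benjamini-Hochberg adjustment over all genes fitted. Treated and DMSO libraries were paired by their cell line. The p-values weigh the mean change against how far it differed between the lines, moderated by the spread shared across genes. The fit was run on simulated data in which both lines changed alike, so that run does not cover changes that differ between the lines.

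The members and lists were chosen with earlier results of these data known. Named are all members and the genes of the other lists past limma. Also named are some, not all, of the 2 most abundant genes of each list and of the 2 with the largest mean change. Any others were chosen after their values were seen. Alternatives were other pseudocounts, FPKM minimums, fold thresholds, median-ratio and TMM scaling, voom, and limma without the cell line or trend. Python 3.11.15 (numpy 2.4.6, pandas 2.3.3, scipy 1.17.1, matplotlib 3.10.9) and R 4.3.3 were used.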

Additional observations from a re-analysis of the deposited data

Results flagged for a closer look

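For 4 members the treated library lay above DMSO in one line and below it in the other, beyond counting error in each as deposited. Under median-ratio scaling the T24 change of ETV5 became 0.01 and that of DUSP5 -0.00, so these 2 of the 4 depend on the scaling. The difference between the lines was not tested, since each line has 1 library per condition. For DUSP5 the log2 fold change in T24 was -0.16 and that in UM-UC-3 was 0.87, and for DUSP6 they were -0.35 and 1.55. They were -0.14 and 1.15 for ETV5, and 0.58 and -0.33 for PHLDA1. Over all genes tested in both lines, 30.9% had opposite signs.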

How the results depend on the processing

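Members called by the rule of size numbered 2 of the 9 tested in T24, and 4 at a 1.5-fold and 1 at a 4-fold threshold. In UM-UC-3 they numbered 2 of 10, and 6 and 0 at those thresholds. Of 12638 genes tested in T24, 2585 (20.5%) were called, and 5385 at 1.5-fold and 546 at 4-fold. Of 13086 in UM-UC-3, 3408 (26%) were called, and 6533 and 737 at those thresholds. An FPKM minimum of 5, which tests fewer genes, gave 1476 in T24 and 2100 in UM-UC-3. Limma called 493 genes. It called 927 under median-ratio scaling, 1017 under TMM and 908 with voom, but 0 without the replicate block of the cell line (1062 at an unadjusted p below 0.05) and 0 without the FPKM minimum (2932). No member fitted passed in any of these fits, and SPRY4 was not fitted with voom. Each fit that kept the block had 3 or 4 members at an unadjusted p below 0.05, and the fit without it had 0. Of all genes fitted, 21.3 to 24.9% were below an unadjusted p of 0.05 in the fits that kept the block and the FPKM minimum. The share was 9.36% without the minimum and 8.44% without the block. The lowest adjusted p over the settings was 0.064 for IER3, 0.083 for ETV4, 0.13 for SPRY2 and 0.17 for SPRY4, and the highest was 0.80, 0.84, 0.93 and 0.96.

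Median-ratio and TMM scaling moved the median log2 fold change of all genes in T24 from -0.15 to -0.01 and -0.04, and in UM-UC-3 from 0.09 to -0.03 and -0.00. The share of calls that were lower went from 66.1% to 55.0% and 57.5% in T24, and from 46.4% to 55.6% and 53.6% in UM-UC-3. ETV5 in T24 changed sign under scaling (up to 0.01), and DUSP5 in T24 reached -0.00. The other members kept their sign in both lines under the pseudocounts and scalings tried. Leaving out a library was not possible with 1 per group. The depth limits DUSP4 in T24, which rests on 5 and 40 reads.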

Other observations

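Some early-response genes of the ERK output list, chosen after their values were seen, had opposite signs in the 2 lines. Of the 22 genes of that list tested in both lines, 6 were above 0 in both and 6 below 0 in both. Over all genes tested in both lines, 32.8% were above 0 in both and 30.9% had opposite signs. MYC, TRIB1 and IER5, of the same list, had one sign in both lines. EGR1, a zinc-finger transcription factor, was at 71.3 and 30.3 FPKM in T24, in DMSO and OICR-9429, and at 2.85 and 20.4 in UM-UC-3. Its log2 fold changes were -1.22 and 2.64. IER2 had log2 fold changes of -0.70 and 0.79, PLK3, a kinase gene, -0.29 and 1.12, and LIF, a cytokine gene, -0.64 and 0.64. FOS and JUNB, subunits of AP-1, were higher in the treated library of both lines, with 0.38 and 1.33 for JUNB and FPKM of 1.97 and 6.47 in T24 for FOS, and of 0.755 and 1.65 in UM-UC-3. None of these passed limma, and the difference between the lines was not tested.

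Other genes of the list had one sign in both lines. UPP1, a uridine phosphorylase, had log2 fold changes of 1.53 and 0.77 (adjusted p = 0.10 by limma), and EPHA2, an ephrin receptor, -0.40 and -1.21 (adjusted p = 0.17). In the same libraries KRT8 fell by 1.51 on the log2 scale in limma with a standard error of 0.24 (adjusted p = 0.033), while PPARG, of the same urothelial list, had log2 fold changes of 1.04 and 1.63. VIM, a mesenchymal filament gene, was at 40.4 and 81.1 FPKM in T24 and at 183 and 79.3 in UM-UC-3. Of the same mesenchymal list, CDH2 had log2 fold changes of -0.70 and -1.10, and FN1 had 1.19 and -0.79. The part of these markers in the values of the 10 genes was not tested.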
